A study of Mus musculus with 6 samples.

Results

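Cadherins and protocadherins are the calcium-dependent adhesion proteins of the cell surface. They were examined here in Pdgfra-reporter cells sorted from mouse lungs after hedgehog signalling had been blocked around birth. Members were taken by symbol, as Cdh or Pcdh names followed by the member's number or letters, which gave 89 of the 48397 symbols counted; 2 further symbols of the same form are not reported here. Pregnant PdgfraEGFP/+ dams were injected intraperitoneally at E18.5, late in gestation, with the anti-hedgehog antibody 5E1 or with control IgG. Their PdgfraEGFP/+ pups were studied on postnatal day 8, when live EGFP-positive lung cells were sorted for poly(A) RNA sequencing, with 3 libraries per group. All 6 libraries carry the reporter allele, and the only stated difference between groups is the antibody given to the dam. The labels do not say whether a library is 1 pup, a pool or 1 litter, so the p-values measure the spread between these libraries only.

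Classical cadherins bind the same cadherin on a neighbouring cell and are anchored to actin through catenins, which makes adherens junctions. Type I members such as E-cadherin are typical of epithelium and type II members such as cadherin 11 of mesenchyme. Protocadherins have more extracellular repeats and mostly no catenin-binding tail. The alpha, beta and gamma protocadherins lie in tandem clusters, best known for giving neurons a combinatorial surface identity, and the others are solitary genes.

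Gene counts summed to between 16958433 and 28405457 reads in the IgG libraries and to between 18857199 and 34318583 in the 5E1 libraries, and the members took 218004 reads in all. The sort was checked on fibroblast markers, whose level in CPM (counts per 1e6 reads, on library sizes scaled by TMM, the trimmed mean of M-values) summed to 51094 to 69409 in IgG and 64792 to 112649 in 5E1. Most of that sum was the collagen genes Col1a1, Col1a2 and Col3a1. Of the 10 fibroblast genes Col3a1 and Dcn rose, Meox2 (mean 117 to 75.7 CPM) and Foxf1 (188 to 145 CPM) fell and 6 did not pass. Epithelial markers summed to 482 to 744 CPM in IgG and 546 to 1622 in 5E1, and endothelial markers to 192 to 225 and 220 to 395. Mesothelial markers summed to 93.4 to 142 and 189 to 321, and leukocyte markers to 133 to 153 and 293 to 464. No gene of these 4 lists was without reads. Smooth muscle markers ran the other way, at 4747 to 5137 CPM in IgG and 2522 to 3696 in 5E1, and so did the Schwann and neural list, at 29.9 to 40.4 and 16.3 to 24.2. Pericyte markers summed to 2156 to 2493 CPM in IgG and 4336 to 5182 in 5E1. Most of that sum was Postn, at a mean of 1555 CPM in IgG and 3712 CPM in 5E1. Of the 10 pericyte genes 4 rose, Trpc6 fell (mean 11.8 to 2.43 CPM) and 5 did not pass. The epithelial and endothelial sums were highest in 5E1 replicate 2. IgG replicate 3 and 5E1 replicate 1 had almost no Y-linked reads (0.0726 and 0.109 CPM, against 195 to 209 in the other libraries). In bulk RNA, fewer cells of a type and less RNA per cell cannot be told apart.

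Of the 89 members, 65 passed the filter on low counts and were tested, and 9 changed at an adjusted p under 0.05 in edgeR's quasi-likelihood test, 5 higher and 4 lower in 5E1. That is 13.8% of the members tested, against 23.2% of all 16198 genes (12.1% higher and 11.1% lower). Of the 5 higher, Cdh17 passed the filter only through its 5E1 libraries. Outside the tandem clusters 8 of 23 tested genes changed, and inside them 1 of 42. The other 24 members had too few reads to test. A level of at least 1 CPM in at least 3 libraries was reached by 60 members. Just inside that line lay Pcdhb2 and Cdh3, whose third-highest library measured 1.23 and 1.33 CPM, and just outside it Pcdhac2 and Cdh18, at 0.920 and 0.871 CPM. The groups did not overlap in 18 of the 65 tested members, against 42.2% of all genes tested.

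**Figure D1:**
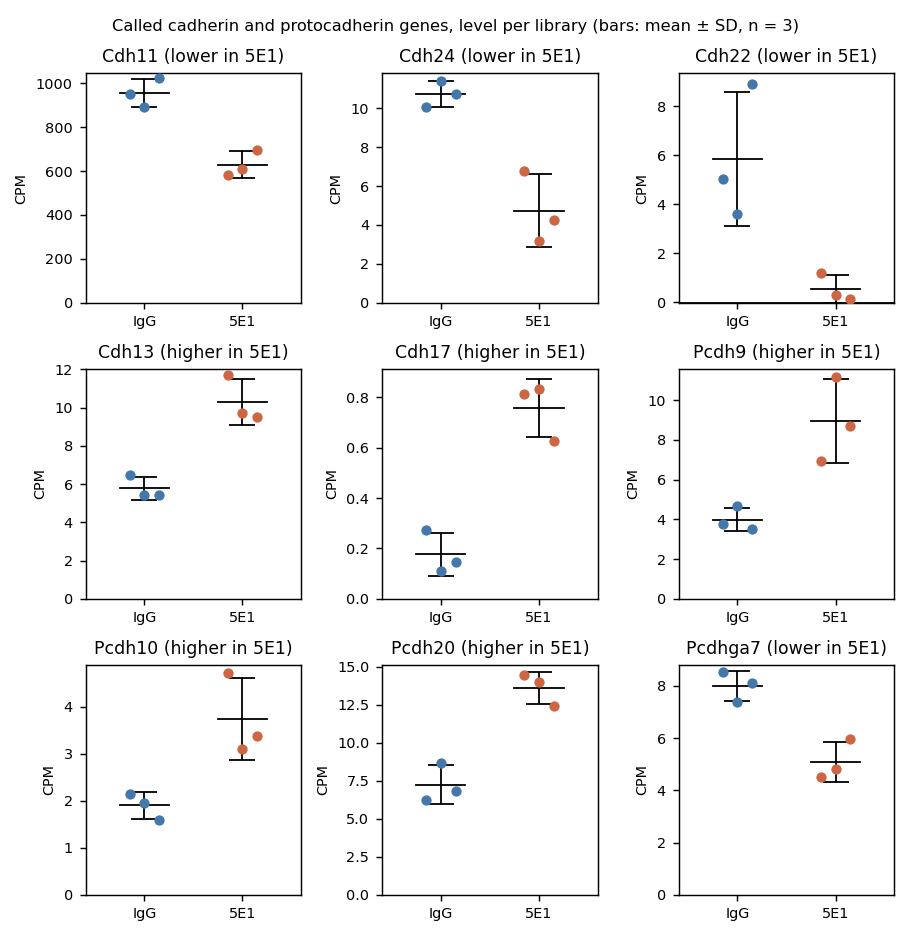
Level in CPM (linear axis) of the 9 called genes in each library, with IgG in blue and 5E1 in orange; points are libraries, in replicate order from left to right, long bars the mean and capped bars the SD (n = 3). The 3 libraries of each group lie apart from those of the other group in every panel, and the scales run from under 1 CPM (Cdh17) to 1023 CPM (Cdh11).

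Promoter sequence was taken from the RefSeq tables (build GRCm38.p6, the coordinates of mm10) for 22 members. All genes of the tandem clusters, among them the called Pcdhga7, were left out of this step, as were Cdh2, Pcdh1 and Pcdh12. Of the 22 members, 5 are among the 9 that changed. The 250 bases upstream of their RefSeq start sites are shown, 5′ to 3′ on the gene's strand. They let the genes that fell (Cdh22, Cdh24) be set beside those that rose (Pcdh9, Pcdh10, Pcdh20). Capitals mark CpG dinucleotides. They are chr2:165234738-165234987 (minus strand) for Cdh22, chr14:54641365-54641614 (minus) for Cdh24, chr14:93890680-93890929 (minus) for Pcdh9, chr3:45378148-45378397 (plus) for Pcdh10 and chr14:88471397-88471646 (minus) for Pcdh20.
Cdh22: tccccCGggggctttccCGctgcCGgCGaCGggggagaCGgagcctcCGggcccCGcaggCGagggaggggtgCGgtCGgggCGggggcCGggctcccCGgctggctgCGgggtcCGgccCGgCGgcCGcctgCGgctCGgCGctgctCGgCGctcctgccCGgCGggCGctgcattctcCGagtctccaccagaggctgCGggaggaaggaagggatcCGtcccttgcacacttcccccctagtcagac
Cdh24: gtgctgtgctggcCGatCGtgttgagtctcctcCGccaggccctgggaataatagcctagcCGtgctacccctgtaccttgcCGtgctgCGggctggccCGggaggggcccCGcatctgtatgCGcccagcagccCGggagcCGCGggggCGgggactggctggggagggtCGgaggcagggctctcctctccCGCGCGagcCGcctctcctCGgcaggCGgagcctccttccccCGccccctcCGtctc
Pcdh9: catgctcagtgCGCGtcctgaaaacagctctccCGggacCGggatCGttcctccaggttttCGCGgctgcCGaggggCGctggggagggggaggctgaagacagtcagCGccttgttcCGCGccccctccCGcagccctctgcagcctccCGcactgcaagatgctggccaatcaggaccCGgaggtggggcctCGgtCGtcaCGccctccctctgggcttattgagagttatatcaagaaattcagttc
Pcdh10: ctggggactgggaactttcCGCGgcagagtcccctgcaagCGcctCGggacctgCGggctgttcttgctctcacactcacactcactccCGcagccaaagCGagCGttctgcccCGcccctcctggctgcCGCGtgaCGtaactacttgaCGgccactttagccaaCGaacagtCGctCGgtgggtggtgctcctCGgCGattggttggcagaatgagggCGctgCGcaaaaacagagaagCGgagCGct
Pcdh20: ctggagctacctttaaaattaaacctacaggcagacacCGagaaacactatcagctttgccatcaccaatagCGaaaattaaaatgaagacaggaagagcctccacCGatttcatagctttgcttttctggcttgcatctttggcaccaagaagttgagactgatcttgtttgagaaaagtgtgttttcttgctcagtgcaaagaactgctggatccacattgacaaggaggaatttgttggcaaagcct
The Cdh22 and Cdh24 windows hold 30 and 22 CpGs with a GC content of 77.6% and 72.8%. Part of the Cdh22 window lies inside the gene as placed by the GENCODE M21 annotation, where it starts at base 165234853 of the minus strand. Pcdh9 and Pcdh10 hold 18 and 22 CpGs, whereas Pcdh20 holds 3, at 42.4% GC. Over one window per gene for 27025 genes, the median was 6 CpGs and 52.0% GC. None of the 5 windows holds the GLI motif GACCACCCA, the E-box CAGGTG of SNAI and ZEB factors or the forkhead motif TGTTTAC on either strand. Those letters occur in 0.207%, 17.1% and 3.06% of all windows of this length.

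Among the type II classical cadherins, 3 of 6 tested genes fell and none rose, where 11.1% of all genes tested fell and 12.1% rose. Cdh11, the cadherin characteristic of fibroblasts and osteoblasts, was the most abundant member by far. It measured 950.3, 892 and 1023 CPM in IgG replicates 1 to 3 and 581, 610 and 697 CPM in 5E1 replicates 1 to 3. Every 5E1 library lay below every IgG library, and the gap between the groups was wider than the range within either. On the log2 scale the difference was -0.60 (SE 0.11), which is 1.52-fold less (edgeR adjusted p 0.00354). Per kilobase of exon its mean level was 107 CPM in IgG and 70.7 in 5E1, against 12.4 and 12.1 for Pcdh18, the next gene outside the clusters. Cdh11 made up 96.2% to 97.5% of the summed CPM of the 16 classical cadherins in each library, and the type II sum, 975 ± 67.9 CPM in IgG and 638 ± 59.5 in 5E1 (SD, n = 3 each), is almost wholly this gene. It lies on chromosome 8 of mm10 (102632095 to 102785642). The summed smooth muscle markers were lower in the same 5E1 libraries, and their part in this difference was not tested.

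Cdh24, another type II cadherin, measured 10.05, 11.4 and 10.7 CPM in IgG and 6.79, 3.19 and 4.23 CPM in 5E1. The IgG libraries lay close together, and the 5E1 libraries spread more widely below them. It fell by 1.20 on the log2 scale (SE 0.25, edgeR adjusted p 0.00678), from 793 reads to 347. Cdh22, a type II cadherin known mainly from brain, measured 5.04, 3.58 and 8.89 CPM in IgG and 1.195, 0.298 and 0.147 CPM in 5E1. The IgG libraries were spread widely, and every 5E1 library lay below the lowest of them. The log2 fold change of -3.57 (SE 0.66, adjusted p 0.00713) was the largest of any member in either direction. In reads this was 457 over the IgG libraries against 36 over the 5E1 libraries, or 13.4-fold lower when pooled (95% exact interval from 9.56 up to 19.4, for counting error only). Cdh24 lies on chromosome 14 (54631231 to 54641364) and Cdh22 on chromosome 2 (165111507 to 165234853).

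The remaining type II genes were low. Cdh6, the cadherin of embryonic kidney, measured 1.51 ± 0.0833 CPM in IgG and 1.59 ± 0.186 in 5E1 (SD, n = 3 each). Cdh12 (log2 fold change 0.93, adjusted p 0.314) and Cdh18 (-0.24, adjusted p 0.746), both brain cadherins, stayed under 1 CPM and did not pass the edgeR test. Cdh7, Cdh9, Cdh10, Cdh19 and Cdh20 had 0 to 20 reads in all and were not tested. Cdh8, a neural cadherin, had no read in IgG, which allows a pooled level of up to 0.0401 CPM, and 0, 6 and 10 reads in the 5E1 libraries. Against a floor of 3 reads over the IgG group that is 5.04-fold higher, with the counting error of the 5E1 reads left out. It rests on 2 libraries and was not tested.

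No type I cadherin passed the test, although all 3 tested had positive fold changes. Cdh1, E-cadherin, measured 3.92, 2.46 and 3.78 CPM in IgG and 5.76, 10.6 and 4.09 CPM in 5E1. All 5E1 libraries exceeded the IgG libraries, narrowly for replicate 3 and widely for replicate 2. The log2 fold change of 1.004 (SE 0.35) had an edgeR adjusted p of 0.0611. It passed in DESeq2 (0.0169), when no genes were filtered (0.000511) and without 5E1 replicate 3 (0.0251). Without 5E1 replicate 2 the log2 fold change was 0.51 (adjusted p 0.209). 5E1 replicate 2 also held the highest sums of epithelial markers (1622 CPM, against 582 and 546 in 5E1 replicates 1 and 3) and of mesothelial markers (321, against 189 and 238). The largest part of each epithelial sum was Scgb1a1, at 376, 239 and 489 CPM in IgG and 256, 999 and 288 CPM in 5E1. Of the 22 epithelial genes 3 rose, none fell and 19 did not pass. The part of these markers in the level of Cdh1 was not tested. Cdh2, N-cadherin of neural and mesenchymal cells, was low in this sort at 2.71 ± 0.579 CPM in IgG and 3.58 ± 0.586 in 5E1 (adjusted p 0.300). Cdh3, P-cadherin, was lower still, at 1.17 ± 0.232 and 1.71 ± 0.770 CPM (adjusted p 0.392), and Cdh15, M-cadherin of muscle, had 2 reads in IgG and 11 in 5E1. The type I genes together averaged 7.30 CPM in IgG and 12.3 CPM in 5E1, small beside Cdh11.

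Of the 4 tested cadherins that lack a classical tail, 2 rose and none fell, where 12.1% of all genes tested rose and 11.1% fell. Cdh13, T-cadherin, is held in the membrane by a lipid anchor and binds adiponectin. It measured 6.47, 5.43 and 5.41 CPM in IgG and 11.7, 9.73 and 9.499 CPM in 5E1. Both groups were tight, and they did not overlap. The level was 1.78-fold higher in 5E1, 0.83 on the log2 scale (SE 0.17, edgeR adjusted p 0.00605), for a gene on chromosome 8 (118283733 to 119324921). The endothelial marker sum was 213, 225 and 192 CPM in IgG and 261, 395 and 219.6 CPM in 5E1. Of its 16 genes Tek and Plvap rose, Erg fell and 13 did not pass. Their part in the level of Cdh13 was not tested. Cdh17, the cadherin of liver and intestine, was at the limit of detection, with 8, 2 and 4 reads in IgG and 15, 28 and 17 in 5E1. Only the 5E1 libraries brought Cdh17 past the filter on low counts, so the filter and the test drew on the same values. Its log2 fold change of 2.02 (SE 0.56) had an edgeR adjusted p of 0.0239. The call ended at 0.0545 to 0.0931 without IgG replicate 2 or 3 or without any 1 of the 5E1 replicates. With the filter at 1 CPM in 3 libraries the gene was not tested. It lies on chromosome 4 (11758147 to 11817895).

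Pcdh15 and Cdh23 form the tip links of hair cells in the inner ear. Pcdh15 measured 2.62, 2.91 and 0.944 CPM in IgG and 0.761, 0.744 and 1.69 CPM in 5E1, so the groups overlapped (adjusted p 0.169). Cdh23 had 1 read in IgG and 11 in 5E1. Cdh16, a kidney cadherin, had 19 and 23 reads, and Cdh26 was under 1 CPM in every library (adjusted p 0.865).

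Among the 10 solitary protocadherins tested, 3 rose, none fell and 7 did not pass, where 12.1% of all genes rose and 11.1% fell. Their median on the log2 scale was 0.69, against 0.00087 over all genes. Pcdh9, a delta-1 protocadherin best known from cortex, measured 3.78, 4.65 and 3.52 CPM in IgG and 6.95, 11.2 and 8.69 CPM in 5E1. The lowest 5E1 library stood well above the highest IgG library. It rose by a log2 fold change of 1.18 (SE 0.22, edgeR adjusted p 0.00369), 2.27-fold. Pcdh20, a solitary protocadherin outside the delta groups, measured 6.23, 8.68 and 6.82 CPM in IgG and 14.5, 13.96 and 12.4 CPM in 5E1, again without overlap. Its log2 fold change was 0.92 (SE 0.17, adjusted p 0.00311). Pcdh10, a delta-2 protocadherin that binds the actin regulators of the WAVE complex, measured 2.15, 1.96 and 1.597 CPM in IgG and 4.73, 3.10 and 3.39 CPM in 5E1. Its log2 fold change was 0.96 (SE 0.28, adjusted p 0.0292). Leaving out any of the IgG libraries, or 5E1 replicate 1 or 3, ended that call (0.0598 to 0.103), as did scaling by library size alone (0.0512). The exons of Pcdh10, on chromosome 3 (45378398 to 45435623), share 154 bases with a transcript on the opposite strand.

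Pcdh9 (93013410 to 93890679) and Pcdh20 (88464743 to 88471396) both lie on chromosome 14, as does Pcdh17 (84443563 to 84539002), a delta-2 protocadherin. Pcdh17 measured 20.6, 25.3 and 17.4 CPM in IgG and 12.9, 18.8 and 12.6 CPM in 5E1, a log2 fold change of -0.51 (SE 0.19) with an edgeR adjusted p of 0.0740. The highest 5E1 library, replicate 2, overlapped IgG, and without it the adjusted p was 0.00927. It also passed in DESeq2 (0.0482), without filtering (0.00307), library size alone (0.0285) and the replicate number as a block (0.0209). Pcdh8, on the same chromosome, had 10 reads in IgG and 36 in 5E1 and was not tested.

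The abundant solitary genes did not pass the test. Pcdh18, a delta-2 protocadherin of mesoderm, measured 68.4, 64.5 and 66.4 CPM in IgG and 60.8, 69.6 and 64.5 CPM in 5E1. Its log2 fold change was -0.03 (SE 0.08), the fold change nearest to 0 among the 23 genes tested outside the clusters. Pcdh7, a delta-1 protocadherin, measured 68.8, 66.8 and 54.6 CPM in IgG and 75.8, 70.4 and 99.5 CPM in 5E1. The groups just failed to overlap, and the log2 fold change of 0.37 (SE 0.14) had an edgeR adjusted p of 0.0808. It passed without 5E1 replicate 2 (0.0401) and with no low-count filter (0.00386), and 2235 of its exon bases are shared with a gene on the opposite strand. Pcdh19 and Pcdh11x are X-linked. Pcdh19, which is mutated in a female-limited epilepsy, measured 6.52 ± 1.53 and 9.67 ± 1.46 CPM (SD, n = 3 each, adjusted p 0.0706), and Pcdh11x 1.67 ± 0.191 and 2.95 ± 0.529 CPM (adjusted p 0.0555). With a term for the 2 libraries almost without Y-linked reads, 1 in each group, the adjusted p was 0.0825 for Pcdh19 and 0.0673 for Pcdh11x. Both passed with DESeq2 (0.0491 and 0.0463) and without 5E1 replicate 2 (0.0387 and 0.0427).

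Pcdh1 and Pcdh12 followed a single library. Pcdh1, known from airway epithelium, measured 8.04, 8.51 and 7.01 CPM in IgG and 7.77, 14.9 and 5.34 CPM in 5E1. Pcdh12, known from endothelium, measured 2.18, 2.63 and 1.45 CPM in IgG and 1.96, 7.56 and 2.43 CPM in 5E1. In each gene 5E1 replicate 2 alone stood above the IgG range. Neither passed the edgeR test (adjusted p 0.624 and 0.210), and without that library the log2 fold changes were -0.27 for Pcdh1 and 0.09 for Pcdh12. Pcdh12 passed with no low-count filter (0.0122). The same library had the highest epithelial sum and the highest endothelial sum (395 CPM, against 261 and 219.6), and their part in these values was not tested.

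**Figure D2:**
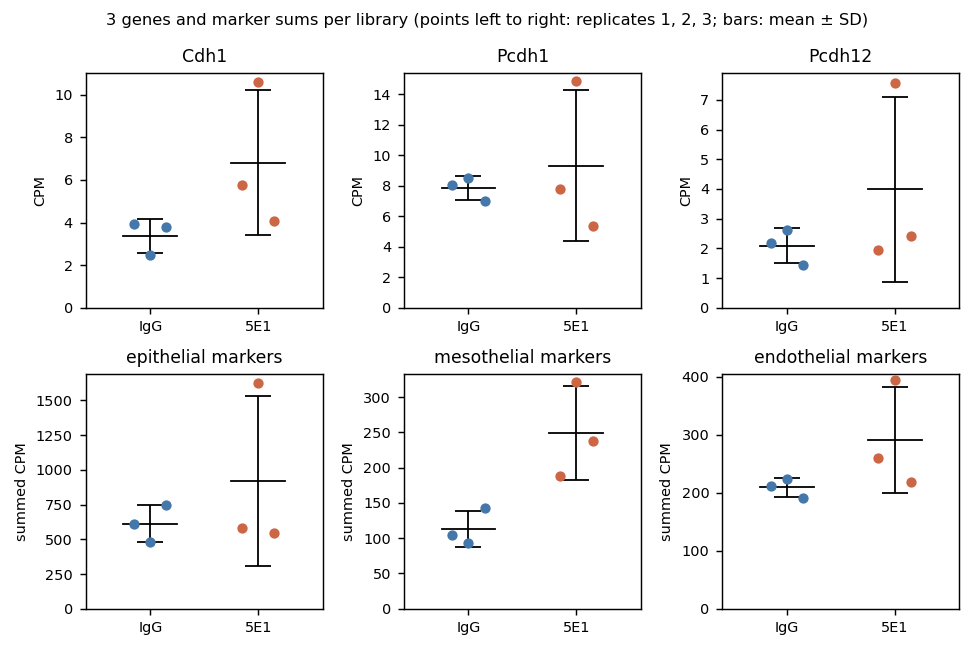
CPM of Cdh1, Pcdh1 and Pcdh12 (top) and summed CPM of epithelial, mesothelial and endothelial marker lists (bottom) in each library, on linear axes from 0; points run from replicate 1 to 3, long bars are means and capped bars SD (n = 3). The middle 5E1 point, replicate 2, is the highest in all 6 panels.

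**Figure D3:**
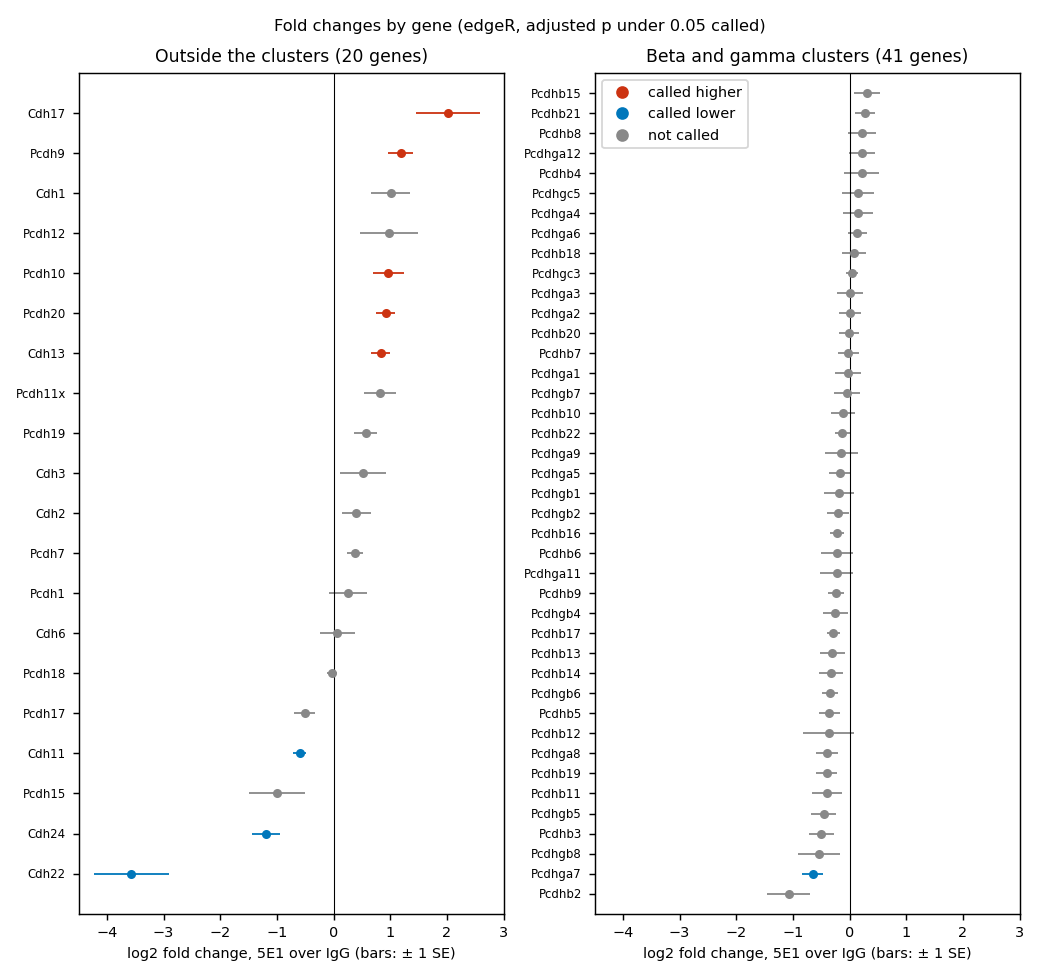
Log2 fold change of 5E1 over IgG with ± 1 SE for the 20 genes outside the clusters and the 41 beta and gamma genes that reached 1 CPM in 3 libraries or were called. Genes outside the clusters run from -3.57 (Cdh22) to 2.02 (Cdh17), and those inside from -1.08 (Pcdhb2) to 0.31 (Pcdhb15).

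The clustered protocadherins of the beta and gamma clusters were expressed in these sorted cells with little difference between groups. The beta cluster summed to 205, 202 and 180.4 CPM in IgG and 172, 148 and 192 CPM in 5E1. For the gamma cluster the sums were 218, 207 and 211 CPM in IgG and 205, 172 and 225 CPM in 5E1, and the groups overlapped for both clusters. The alpha cluster was nearly silent, at 0.543 to 3.38 CPM per library over its 13 genes together. Only Pcdhac2 of the alpha genes had enough reads to test, 171 in all, and it did not pass (adjusted p 0.537). Alpha and gamma genes each splice a first exon of their own to constant exons that the cluster shares. The annotation behind the counts is not given in the sources used here, so how reads of the constant exons were assigned is not known.

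In the beta cluster 21 of 22 genes reached 1 CPM in 3 libraries and none was called, while Pcdhb1 had no read in any library. The most abundant was Pcdhb17, at 29.8, 25.8 and 26.1 CPM in IgG and 23.3, 19.3 and 24.4 CPM in 5E1. Its 5E1 libraries all lay below its IgG libraries, by little (log2 fold change -0.29, SE 0.12, edgeR adjusted p 0.110). Pcdhb2 had the lowest fold change of the cluster, at 1.75 ± 0.494 CPM against 0.842 ± 0.118 CPM (log2 fold change -1.08, SE 0.37, adjusted p 0.0579). It passed with library size alone (0.0337) and with the filter at 1 CPM in 3 libraries (0.0460). Per unshared kilobase of exon, a scale on which genes can be compared, beta genes with reads ran from 0.623 CPM (Pcdhb2) to 5.84 CPM (Pcdhb17) in IgG. Pcdhb9 (5.45) and Pcdhb16 (4.39) came next. Levels tended to be higher toward the downstream end of the cluster, with a Spearman rho between place in the cluster and level of 0.52 in IgG and 0.57 in 5E1 over the 22 genes. Those genes share libraries and a locus, so this describes the locus and carries no test.

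In the gamma cluster 20 of 21 genes were tested, and Pcdhga7 was called. It measured 8.52, 7.39 and 8.13 CPM in IgG and 4.51, 4.82 and 5.96 CPM in 5E1, without overlap. It fell by 0.65 on the log2 scale (SE 0.18, edgeR adjusted p 0.0266). Leaving out any of the IgG libraries, or 5E1 replicate 1, ended the call (adjusted p 0.0513 to 0.105). Its neighbours in the locus were not called. The adjacent genes Pcdhga6 and Pcdhgb4 had log2 fold changes of 0.13 and -0.25, and Pcdhga8 one of -0.40 (adjusted p 0.158). Pcdhgc3 was the second most abundant of all members, at 95.3, 86.4 and 93.6 CPM in IgG and 94.8, 80.6 and 107 CPM in 5E1. Those values interleave (log2 fold change 0.04, SE 0.11). If reads of the gamma constant exons were counted to this gene, its level and its rank would be too high, and of its 5499 exon bases 3678 are shared with other genes. With that limit, Pcdhgc3 stood at 50.4 CPM per unshared kilobase in IgG and 51.8 in 5E1, where the next gamma gene, Pcdhgb6, had 8.22 and 6.47. The last gene of the cluster, Pcdhgc5, had 0.520 and 0.579, and Pcdhga10, whose exons are wholly shared in the GENCODE M21 annotation, had no reads.

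**Figure D4:**
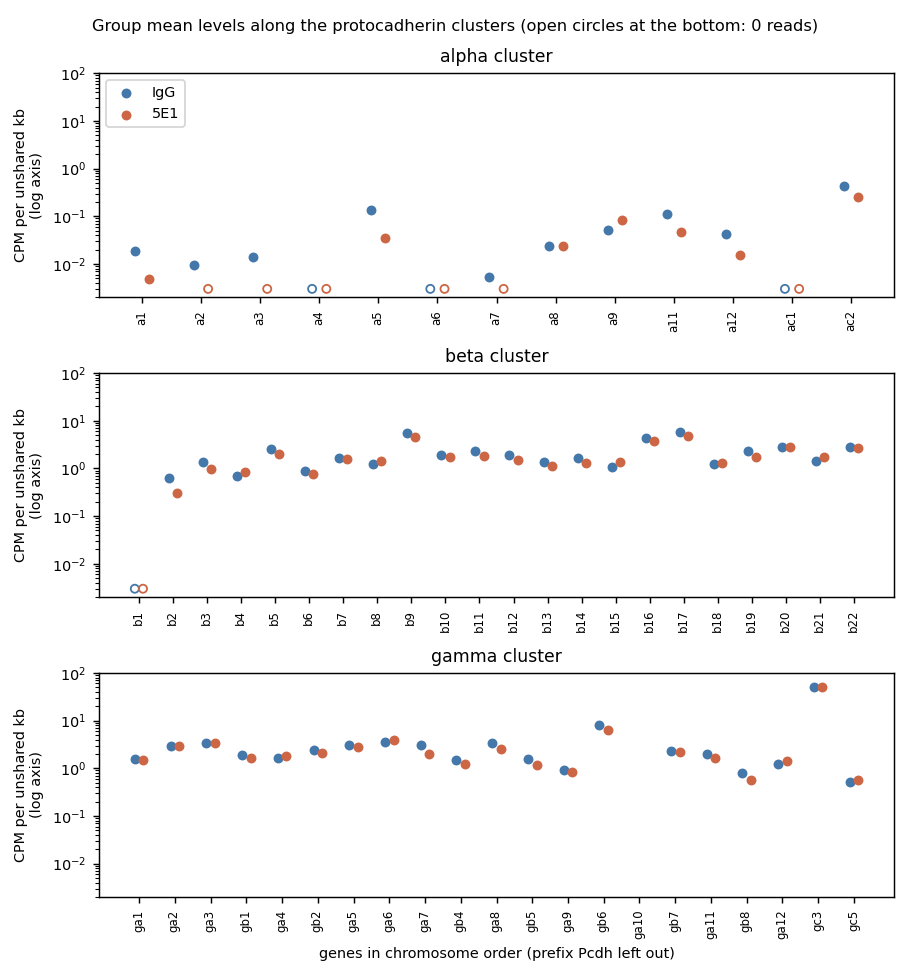
Group mean level in CPM per kilobase of exon not shared with another gene (log axis) for the alpha, beta and gamma genes in chromosome order, with IgG in blue and 5E1 in orange; open circles at the bottom mark 0 reads, and Pcdhga10 has no unshared exon and no point. The groups nearly coincide in the beta and gamma clusters, the alpha genes lie below 1, and Pcdhgc3 stands at about 50.

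Across the 42 tested clustered genes 31 had fold changes below 1, with a median log2 fold change of -0.20, against 49.9% and a median of 0.00087 for all genes. With no low-count filter 32 of the 42 lay below 0 on the log2 scale. Library size alone moved the median of all genes by -0.14, and 37 of the 42 then lay below 0. The order of the genes was almost the same in both groups, with a Spearman rho between the IgG and 5E1 levels of 0.95 for beta and 0.96 for gamma, over 22 and 20 genes measured in the same libraries.

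The proteins that anchor, cut or control cadherins were followed with 5 lists, whose counts stand against 23.2% called over all genes. Of 17 tested catenin and plakin genes 3 rose and 2 fell, and the list's median was -0.02 (log2). The core catenins did not pass. Ctnnb1 (beta-catenin) had a log2 fold change of -0.23 (edgeR adjusted p 0.0866), Ctnna1 (alpha-catenin) one of -0.07 (0.634) and Ctnnd1 (p120-catenin) one of -0.02 (0.886). Jup, plakoglobin, which can take the place of beta-catenin on a cadherin tail, rose from 64.98 ± 2.36 to 83.9 ± 5.35 CPM (SD, n = 3 each, log2 fold change 0.37, adjusted p 0.00868), except with library size alone (0.0888). Arvcf, of the p120 family, rose by 0.49 (adjusted p 0.0150), a call that ended without IgG replicate 1 or 2, without 5E1 replicate 3 or with library size alone (0.0541 to 0.0716). Ctnnal1, an alpha-catenin relative, fell from 42.1 ± 1.26 to 27.98 ± 3.37 CPM (log2 fold change -0.59, adjusted p 0.00298). Ppl, periplakin, rose from 1.68 ± 0.884 to 19.9 ± 9.58 CPM (3.51, adjusted p 0.00462). Its 5E1 values of 10.2, 29.4 and 20.03 CPM ranked as the mesothelial marker sum did (189, 321 and 238 CPM), whose part in this difference was not tested. Vcl, vinculin, which reinforces junctions under load, fell by 0.28 on the log2 scale (adjusted p 0.0482), and 10 of 15 alternatives ended that call.

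Of 17 other tested genes of the cadherin superfamily and planar polarity, 2 rose and 2 fell. Fat3, a giant atypical cadherin, fell from 69.99 ± 5.17 to 27.0 ± 6.44 CPM (SD, n = 3 each, log2 fold change -1.38, SE 0.16, edgeR adjusted p 0.000551). Its relative Fat4 moved the other way, from 142 ± 12.6 to 200.2 ± 44.5 CPM (0.50, adjusted p 0.0386), and 8 of 15 alternatives ended that call. Dchs1, the ligand of Fat4, did not pass (-0.34, adjusted p 0.0984). Vangl2, a planar polarity gene, fell by 0.70 on the log2 scale (adjusted p 0.00175). Celsr3, a seven-pass cadherin gene, rose at a low level, from 0.134 ± 0.0939 to 0.911 ± 0.168 CPM, and passed the filter on low counts only through the 5E1 libraries. Of 8 nectin and nectin-like genes Pvr rose (0.59, adjusted p 0.00613) and none fell. Among 16 shedding and turnover genes Psen2, a gamma-secretase subunit, rose (0.51, adjusted p 0.0274) and Zdhhc5, a palmitoyl transferase, fell (-0.26, adjusted p 0.0496). The call of Psen2 ended in 4 of 15 alternatives and that of Zdhhc5 in 13. Adam10, the main sheddase of cadherins, had a log2 fold change of -0.25 (adjusted p 0.0802).

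Of 11 tested regulator genes of epithelial-mesenchymal transition, several of which repress Cdh1, 4 fell and 1 rose. The 11 include the epithelial genes Esrp1, Esrp2 and Grhl2, which did not pass. Snai2 fell from 91.8 ± 8.09 to 55.8 ± 7.04 CPM (SD, n = 3 each, log2 fold change -0.72, edgeR adjusted p 0.00109). Twist1, a helix-loop-helix factor, fell from 9.94 ± 2.33 to 2.49 ± 1.497 CPM (-2.05, adjusted p 0.00983), and Tcf3, its E-protein partner, fell by 0.48 on the log2 scale (adjusted p 0.00689). Zeb2 fell by 0.29 (adjusted p 0.0453), a call that 9 of 15 alternatives ended. Prrx1, a homeobox gene of mesenchyme, rose from 109.8 ± 18.7 to 183 ± 21.0 CPM (0.74, adjusted p 0.00330). Snai1 (-0.05, adjusted p 0.835) and Zeb1 (-0.05, adjusted p 0.745) did not pass. Over the 5 lists, 8 of 69 tested genes rose and 9 fell, a share of calls near that of all genes (12.1% higher and 11.1% lower), and the median of the 69 was -0.04 (log2).

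**Figure D5:**
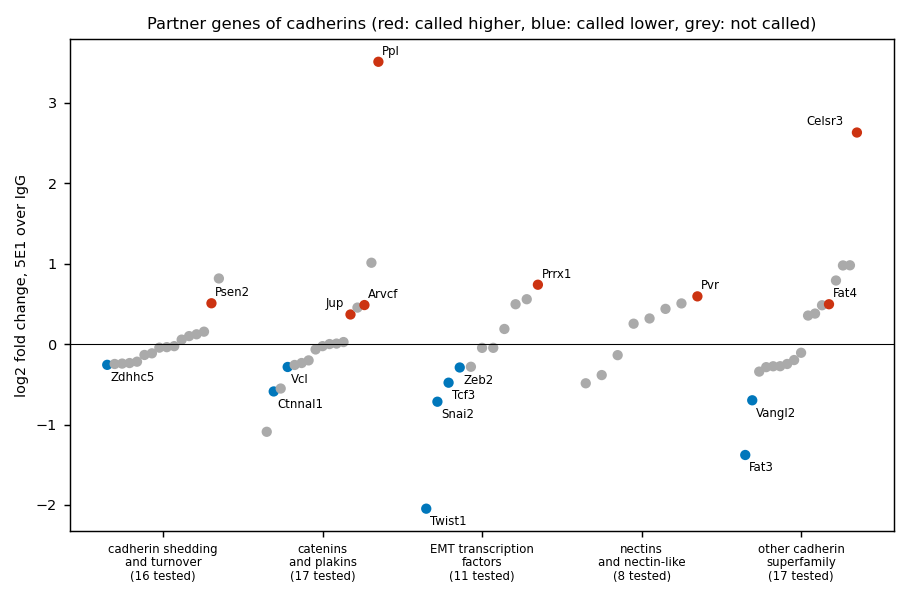
Log2 fold change of 5E1 over IgG for the 69 tested genes of 5 partner lists, each point a gene, coloured by its edgeR call. The called genes run from -2.05 (Twist1) to 3.51 (Ppl), and most points lie within 1 unit of 0.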

How the data were processed

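The members and lists were chosen with earlier results of these data known. Each library has a deposited table of unnormalised counts, whole reads for each symbol. The submitters' processing notes name build mm10 and, without saying what each did, HTSeq 0.6.0, STAR 2.5.0c, bedtools 2.17.0 and Picard 1.126. Which annotation and strand setting were used, and whether duplicates were removed, is not given in the sources used here. Ambiguous reads, 3.62% to 3.88% of uniquely aligned reads, and the other 4 summary lines named no gene and were left out; the 5 lines held 36.4% to 54.7% of all reads. Replicates differed by more than sampling noise (chi-square over degrees of freedom 14.8 to 50.5).

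Genes were kept with filterByExpr (minimum count 10, minimum total 15), scaled by TMM and fitted in R 4.3.3 with edgeR 4.0.16 (robust glmQLFit, glmQLFTest, group as the only term). Tests were two-sided, with Benjamini-Hochberg adjustment over all genes tested. Fold changes used a prior count of 0.125. The scripts were tested on simulated data. In those data DESeq2 was more liberal than edgeR, with a larger share of false calls, so it served only as an alternative. Alternatives were RLE, library size alone, DESeq2 1.42.0, limma-voom 3.58.1, 2 other filters, a fit that was not robust, a block for replicate number, each library left out and, added after seeing the data, a term for libraries almost without Y-linked reads (under 1 CPM). Outside the clusters, members at 1 CPM in 3 libraries or called were named, inside them the called, most and least abundant genes, and partners when called; other genes named were chosen after their values were seen. Positions, exon lengths and overlaps come from GENCODE M21 (GRCm38), which matched all 89 members; exons of 44 overlap another gene, 7 of them outside the clusters.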

Additional observations from a re-analysis of the deposited data

How the results depend on the processing

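Of the 9 called members, 6 (Cdh11, Cdh13, Cdh22, Cdh24, Pcdh9 and Pcdh20) kept direction and call in all 15 alternatives, and 3 (Cdh17, Pcdh10 and Pcdhga7) lost the call in some. No call of a member or of a called partner changed direction. Of the 52 other members compared, 41 were not called in any alternative and 11 in at least 1, and for 17 the sign differed without a call on either side. Called members higher in 5E1 numbered 8 in DESeq2 and 9 when genes were not filtered, and 3 to 7 with 1 library left out (3 without IgG replicate 2, IgG replicate 3 or 5E1 replicate 1). Members lower numbered 10 with library size alone and 3 to 5 with 1 library left out. Library size alone called 4 partners higher and 17 lower, and 1312 genes higher against 3274 lower over all genes, so 28.6% of calls were higher instead of 52.3%. With 1 library left out, all genes called higher numbered 1221 to 1885 and lower 1073 to 1819, and partners higher 5 to 9 and lower 6 to 8. The calls over all genes, 3757 in the main analysis, fell to 2497, 2305 and 2517 without IgG replicate 1, 2 or 3 and to 2410 without 5E1 replicate 3. Deviations of same-numbered libraries from their group means showed no positive correlation (-0.106, -0.0365 and -0.0854). The labels do not say whether the replicate numbers pair the libraries, and 3 libraries per group are too few to settle it. With the replicate block 5 members were higher and 5 lower, the added call being Pcdh17, and 3220 genes were called over all. The 24 members with too few reads were not tested, so no difference in them can be called at this depth.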
